A study of Mus musculus with 10 samples.

Results

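Chemokine ligands were examined in purified cardiomyocytes (CMs) of young and old mice. The members are all rows of the expression table whose gene name begins with Ccl, Cxcl or Cx3cl followed by a digit, which gave 41 of 37819 rows and 40 gene names, since Ccl25 has 2 rows. Of these 41 rows, 36 were above 0 in at least 1 library, 12 reached a mean of 1 FPKM over the 10 libraries and 5 were listed at 0 in every library. FPKM, the number of fragments scaled by transcript length and by all mapped fragments, is a level per length, so levels of different genes can be set side by side. C57BL6J mice from a commercial breeder were killed at 3 months (young, 5 libraries) or 20 months (old, 5 libraries), without any treatment or transgene in either group. Hearts were digested by Langendorff perfusion, myocytes were sedimented, and cells with CD31, CD45 or Sca-1 on their surface were removed with magnetic beads before RNA was extracted. The study's methods describe mice of mixed sex, and the labels number the libraries without saying which animal each came from, so p-values measure the spread between libraries. A legend of the study gives fewer mice per age for its RNA sequencing than there are libraries here. Another legend, for heatmaps of secreted factors as RNA and as protein, gives n = 5 per age group. Some libraries may therefore not be separate animals.

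Chemokines are small secreted proteins that guide the migration of cells through G protein-coupled receptors. They are classed by the spacing of their first cysteines: CC ligands mostly attract monocytes, eosinophils and lymphocytes, CXC ligands that carry the residues ELR before the motif attract neutrophils, and CX3CL1 is made as a membrane-bound protein that can be shed. In the heart, chemokines are best known for the recruitment of leukocytes after injury, several are listed among the factors that senescent cells secrete, and CXCL12 has known roles in vascular development and the retention of CXCR4-bearing cells.

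The class motif can be read in the coding sequence, and 4 stretches are shown because they stand for the classes that the results are ordered by. The codons of the motif are in capitals, with 15 bases on either side of the cysteine motif, each stretch lies in 1 coding exon, and coordinates are of the mm9 build. The stretches are Ccl2 at chr11:81849993-81850028 (plus strand), Cxcl1 at chr5:91320507-91320545 (plus strand, where the capitals also take in the codons for ELR), Cxcl12 at chr6:117121511-117121549 (plus strand) and Cx3cl1 at chr8:97301936-97301980 (plus strand).
Ccl2: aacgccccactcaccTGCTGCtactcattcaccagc
Cxcl1: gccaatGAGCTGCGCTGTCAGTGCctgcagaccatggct
Cxcl12: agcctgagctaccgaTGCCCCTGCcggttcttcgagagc
Cx3cl1: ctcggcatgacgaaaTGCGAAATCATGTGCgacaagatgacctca
In Ccl2 the 2 cysteine codons touch, in Cxcl1 and Cxcl12 they stand 1 codon apart and in Cx3cl1 they stand 3 codons apart. Of the 36 members whose coding sequence was read, 35 held the motif of their class, and the exception was the second Ccl25 row (Ccl17, Ccl28, Cxcl11 and the 2 Ccl19 pseudogenes were not read). Of 12 CXC members read, 5 held ELR directly before the motif, namely Cxcl1, Cxcl2, Cxcl3, Cxcl5 and Cxcl15.

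Most members lay in clusters. Chromosome 11 held 12 rows, chromosome 5 held 11, chromosome 4 held 8 and chromosome 8 held 5, while Cxcl12 was the only member on chromosome 6. RefSeq promoters (GRCm38.p6, windows of 300 bases that end 50 bases after the start) were matched by gene name for 26 members, which had 32 promoters. A kappaB motif was present in 25% of these against 8.46% of all 32851 promoters. The core of an interferon response element, GAAANNGAA, was present in 18.8% against 8.56%. An AP-1 motif (TGANTCA) was present in 21.9% against 7.81%, and a TATA box (TATAAA) in 31.2% against 13.6%. These shares count promoters, and Ccl27a and Ccl27b, which share sequence, each had several of the 32. The AP-1 matches lay in 7 promoters of 6 genes, Ccl27a and Ccl27b among them. Both strands were searched for all 4 motifs, overlapping matches were kept, and the median GC content was 52.5% for the members and 52.7% for all promoters. The 8 genes with a kappaB match were Ccl1, Ccl9, Ccl20, Ccl27a, Cxcl1, Cxcl2, Cxcl3 and Cxcl10. Members without a matched promoter were not searched, so the shares leave them out. Among these were Ccl2, Ccl4, Ccl5, Ccl7, Ccl11, Ccl24, Cxcl5 and Cxcl16. A match is a string of letters, not a measured site.

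The promoters of 4 members are shown: Cxcl12, which had the highest level, Cx3cl1 and Ccl8, the 2 members with an unadjusted exact p under 0.05, and Cxcl1, as an ELR member with kappaB letters. They are on the plus strand at chr6:117168285-117168584, chr8:94771930-94772229, chr11:82114935-82115234 and chr5:90890995-90891294 of GRCm38.p6, and capitals mark the motif matches.
Cxcl12: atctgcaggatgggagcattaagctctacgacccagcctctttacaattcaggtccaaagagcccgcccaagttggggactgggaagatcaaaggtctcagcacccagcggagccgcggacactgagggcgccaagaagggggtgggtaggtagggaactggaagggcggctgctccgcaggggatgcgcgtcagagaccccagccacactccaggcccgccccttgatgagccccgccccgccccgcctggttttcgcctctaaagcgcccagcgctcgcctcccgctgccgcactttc
Cx3cl1: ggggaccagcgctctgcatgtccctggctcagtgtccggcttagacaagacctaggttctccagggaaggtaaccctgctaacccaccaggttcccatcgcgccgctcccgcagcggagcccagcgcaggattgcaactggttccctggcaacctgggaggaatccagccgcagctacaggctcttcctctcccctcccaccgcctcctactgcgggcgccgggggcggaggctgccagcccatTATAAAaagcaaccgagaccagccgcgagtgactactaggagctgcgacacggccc
Ccl8: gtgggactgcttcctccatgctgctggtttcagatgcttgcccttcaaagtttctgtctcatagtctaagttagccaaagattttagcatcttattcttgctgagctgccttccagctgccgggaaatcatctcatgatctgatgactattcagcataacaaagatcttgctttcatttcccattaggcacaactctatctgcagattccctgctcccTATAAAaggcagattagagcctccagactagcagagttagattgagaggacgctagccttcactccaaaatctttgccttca
Cxcl1: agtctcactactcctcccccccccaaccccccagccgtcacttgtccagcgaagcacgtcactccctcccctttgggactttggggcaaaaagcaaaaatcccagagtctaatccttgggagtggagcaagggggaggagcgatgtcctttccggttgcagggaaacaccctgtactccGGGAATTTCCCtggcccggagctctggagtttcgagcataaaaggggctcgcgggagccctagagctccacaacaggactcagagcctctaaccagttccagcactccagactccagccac
The Cxcl12 window held none of the 4 motifs, Cx3cl1 and Ccl8 each held 1 TATAAA, and Cxcl1 held 2 overlapping kappaB matches.

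Across the libraries, all 8 CM markers (such as Myh6, Tnnt2 and Ryr2) were tested and the mean of the list was 10.5 on the log2(FPKM + 1) scale in young and in old CMs. Of the 8, 0 were called, beside 1.78% of all tested features. Tnni3 stood at 4404 to 5094 FPKM in young and 3499 to 4129 in old libraries without overlap (limma adjusted p = 0.0886). The ages did not overlap for 6.91% of tested features. Actn2 and Ttn were higher in old CMs on average. Markers of other cell types were present at lower levels: the summed FPKM of 8 endothelial markers was 115 to 249.3 in young and 140 to 275 in old libraries, that of 8 fibroblast markers 52.6 to 141 and 49.5 to 141, that of 12 macrophage and monocyte markers 28.5 to 82.6 and 32.1 to 56.8, and that of 5 pan-leukocyte markers 3.01 to 6.34 and 4.25 to 8.13. Of 6 neutrophil markers none reached a mean of 1 FPKM, and Mpo and Elane, which encode granule enzymes of neutrophils, were at 0. Ly6g was at 1.27 in young library 4 and 1.10 in old library 1. However, the authors' mean normalized count of Ly6g over all libraries was 0. Of 10 T, B and NK cell markers none reached a mean of 1 FPKM and Ncr1 was at 0. Young library 4 and old library 1 stood apart from the rest: of 61 non-CM markers above 0, 26 were highest in young library 4 and 22 in old library 1. The fit across all genes was therefore also run without these libraries. In bulk RNA, fewer cells of a type and less RNA per cell cannot be told apart.

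No chemokine ligand passed the test for a difference with age across all genes (limma on log2(FPKM + 1), 2-sided, Benjamini-Hochberg adjustment over 12340 features). Of the 12 ligands tested, 0 were called at an adjusted p under 0.05, against 220 called features or 1.78% of those tested. At an unadjusted p under 0.05 there was 1 ligand, Cx3cl1, against 20.9% of all features. The libraries of the 2 ages did not overlap for 0 of the 12 tested ligands, beside 6.91% of the tested features, a share at which a count of 0 among 12 is no contrast. The median difference, old minus young, was 0.06 for the 12 ligands and -0.06 for all tested features, and 9 of the 12 were higher in old CMs on average against 31.3% of all tested features. Without old library 1 the median of the ligands was -0.0079 and without young library 5 it was -0.00048, each with 6 higher, and without young library 4 it was 0.22 with 9 of 11 higher. Of the 36 detected members, 26 were higher in old CMs against 44% of the 25134 features above 0. For 11 of the 12 the 95% interval of the difference lay between -1 and 1 on the log2 scale, and the exception was Ccl9. By exact permutation tests of single members, 2 of the 36 detected members had an unadjusted 2-sided p under 0.05, Cx3cl1 and Ccl8, beside 13.1% of the same 25134 features (the smallest p that 5 against 5 libraries allow is 0.00794).

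**Figure D1:**
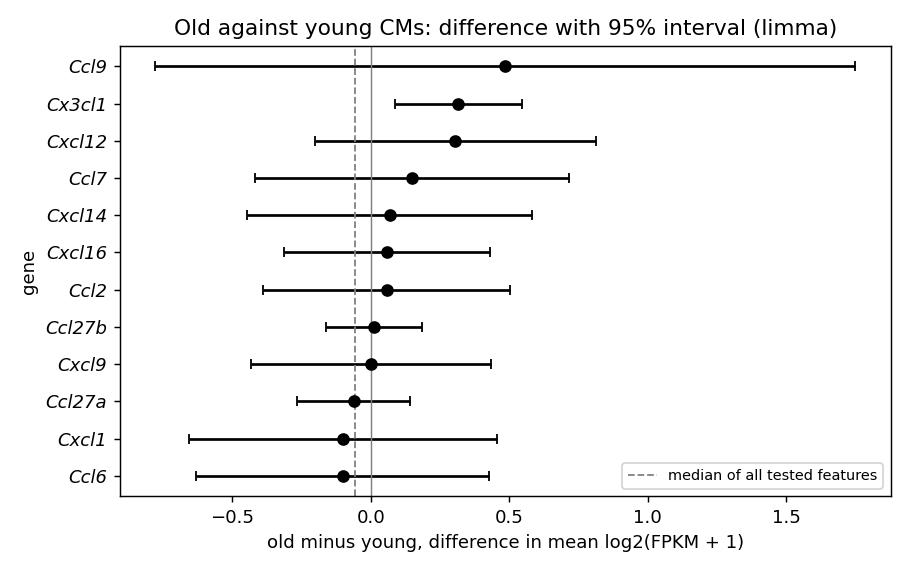
Difference between old and young CMs in mean log2(FPKM + 1), with its 95% interval from limma, for the 12 chemokine ligands with a mean of at least 1 FPKM (5 libraries per age). Only the interval of Cx3cl1 (0.09 to 0.55) lies wholly on one side of 0, and that of Ccl9 is the widest; the dashed line is the median of all 12340 tested features.

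The homeostatic and other CXC ligands held the highest level. Cxcl12, the ligand of CXCR4 and of the scavenger receptor CXCR7 (ENSMUSG00000061353, chr6:117118553-117131385), stood at 17.5, 29.7, 19.3, 36.9 and 17.5 FPKM in young libraries 1 to 5 and at 42.8, 24.8, 29.5, 23.9 and 26.1 in old libraries 1 to 5. These gave 24.2 ± 8.75 in young and 29.4 ± 7.80 in old CMs (mean ± SD, n = 5). Old library 1 and young library 4 were the highest of their groups, and the ranges overlapped. The difference was 0.31 on the log2(FPKM + 1) scale (SE 0.23, 95% interval -0.20 to 0.81, limma adjusted p = 0.501), and it was 0.33 without young library 4 and old library 1 together (adjusted p = 0.315). Left out singly, old library 1 brought it to 0.17 and young library 4 to 0.47, the ends of the range over single libraries. Cxcl12 alone made up 41.3% to 54.2% of the summed FPKM of all 41 members in a library.

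Cxcl16, a ligand made as a membrane-bound protein that also acts as a scavenger receptor (ENSMUSG00000018920, chr11:70267485-70273486), was far lower. It stood at 1.42, 2.03, 1.64, 2.39 and 1.2 FPKM in young libraries 1 to 5 and at 2.98, 1.17, 1.94, 1.61 and 1.68 in old libraries 1 to 5. Old library 1 was highest, old library 2 was lowest and the groups overlapped over nearly the whole range (log2 difference 0.06, SE 0.17, limma adjusted p = 0.888). Of its exons, 552 bases overlap those of Zmynd15. Cxcl14 (ENSMUSG00000021508, chr13:56390008-56397912), a ligand found in many epithelia, stood at 0.943, 0.943, 0.632, 2.94 and 1.17 FPKM in young libraries 1 to 5 and at 1.96, 1.09, 1.08, 0.856 and 1.80 in old libraries 1 to 5. Young library 4 exceeded every other library, and the difference between ages was 0.07 (SE 0.23, limma adjusted p = 0.907). Cxcl13, the B cell attractant, had a mean of 0.0317 FPKM and was at 0 in 5 of 10 libraries, and Cxcl17 was at 0 in all.

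**Figure D2:**
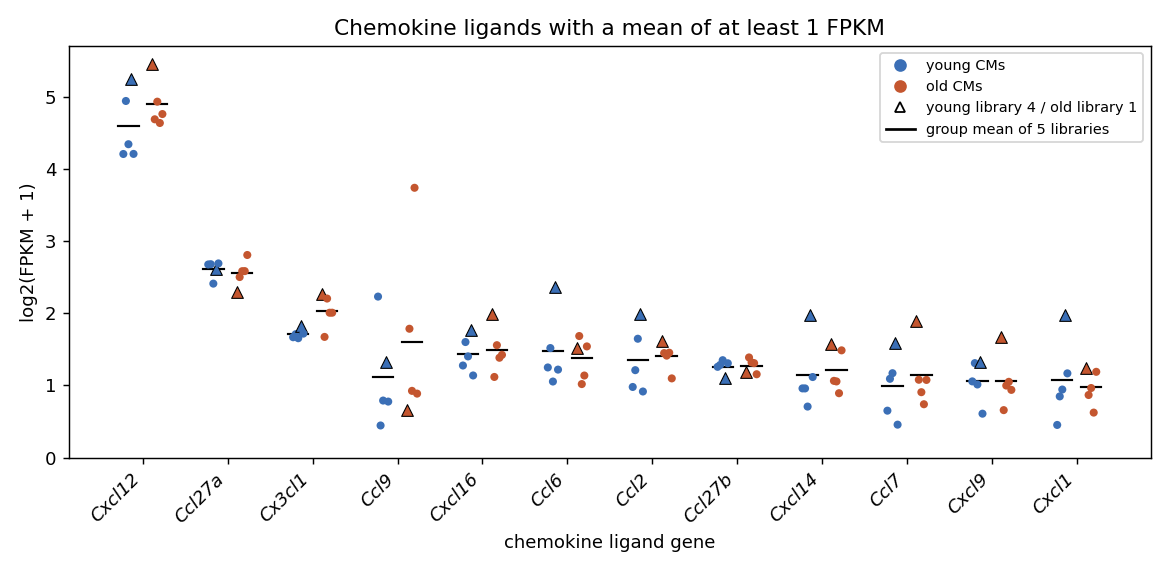
Level of the 12 chemokine ligands with a mean of at least 1 FPKM, as log2(FPKM + 1), in each of the 5 young (blue) and 5 old (orange) libraries; bars are group means and triangles mark young library 4 and old library 1. Cxcl12 stands above all others in every library, 4 of 5 old libraries lie above the young ones for Cx3cl1, and a triangle is the highest point for 9 of the 12.

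Cx3cl1, or fractalkine, the only CX3C ligand (ENSMUSG00000031778, chr8:97295909-97306323), was the tested member with the lowest p between the ages. It stood at 2.18, 2.27, 2.15, 2.54 and 2.29 FPKM in young libraries 1 to 5 and at 3.80, 2.19, 3.61, 3.02 and 3.02 in old libraries 1 to 5. All old libraries but library 2 lay above every young library, and old library 2 lay inside the young range. Means were 2.29 ± 0.156 in young and 3.13 ± 0.631 in the old libraries (SD, n = 5). The difference was 0.32 on the log2(FPKM + 1) scale (SE 0.10, 95% interval 0.09 to 0.55), with an exact permutation p = 0.0317 and a limma adjusted p of 0.128, so it did not pass the test across all genes. Without old library 2 the adjusted p was 0.0485, the only setting in which any member was called, and over all alternatives it ranged from 0.0485 to 0.252. Without young library 1 or young library 3 the exact p was 0.0556. Without young library 4 and old library 1 the difference was 0.29 (adjusted p = 0.224). Its receptor gene Cx3cr1, which marks monocytes and macrophages, had a mean of 0.311 FPKM.

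The monocyte attractants of chromosome 11 were all low. Of 4 ligands, 2 reached 1 FPKM, 0 were called and all 4 had a higher mean of log2(FPKM + 1) in old CMs. Ccl2, the main ligand of CCR2 (ENSMUSG00000035385, chr11:81849073-81850955), stood at 0.970, 1.32, 2.13, 2.96 and 0.886 FPKM in young libraries 1 to 5 and at 2.07, 1.73, 1.66, 1.74 and 1.14 in old libraries 1 to 5. The old libraries lay within the young range, and the difference was 0.06 (SE 0.20, limma adjusted p = 0.909). Ccl7, another monocyte attractant (ENSMUSG00000035373, chr11:81859214-81861027), stood at 0.569, 1.13, 1.25, 2.01 and 0.372 FPKM in young libraries 1 to 5 and at 2.73, 1.11, 0.874, 0.669 and 1.11 in old libraries 1 to 5. Its 2 highest values were again those of old library 1 and young library 4 (log2 difference 0.15, SE 0.26, limma adjusted p = 0.799).

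Ccl12 and Ccl8 were below the level needed for the test across all genes. Ccl12, a mouse CCR2 ligand (ENSMUSG00000035352, chr11:81915347-81916902), stood at 0.583 ± 0.307 FPKM in young and 1.03 ± 0.375 in the old libraries (SD, n = 5), with ranges of 0.293 to 1.03 and 0.519 to 1.47 and an exact permutation p = 0.0873. This p was 0.0397 without young library 4 or without old library 4, and 0.183 without old library 1. Ccl8, in mouse an agonist of CCR8 (ENSMUSG00000009185, chr11:81928687-81930301), stood at 0.104, 0, 0.198, 0.102 and 0.0970 FPKM in young libraries 1 to 5 and at 0.192, 0.677, 0.595, 0.334 and 0.290 in old libraries 1 to 5. All old libraries but library 1 lay above every young library. The exact permutation p was 0.0159 and stayed between 0.00794 and 0.0238 when each library was left out in turn, with a mean difference of 0.36 on the log2(FPKM + 1) scale, which understates changes at such levels. The authors' mean normalized count of Ccl8 over all libraries was only 1.69, so the values rest on very few reads per library. With no filter on low values, limma gave Ccl8 an adjusted p of 0.140.

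The inflammatory CC ligands showed no difference past the spread between libraries. Of 5 ligands, 2 reached 1 FPKM and 0 were called. Ccl9, a myeloid ligand of CCR1 (ENSMUSG00000019122, chr11:83386421-83392138), was the most variable tested member. It stood at 3.69, 0.361, 0.729, 1.5 and 0.712 FPKM in young libraries 1 to 5 and at 0.576, 2.45, 0.898, 12.4 and 0.849 in old libraries 1 to 5. Old library 4 alone lifted the old mean to 3.42 ± 5.04 FPKM, above the young mean of 1.40 ± 1.35 (SD, n = 5). The difference was 0.49 (SE 0.57, 95% interval -0.78 to 1.75, limma adjusted p = 0.687) and turned to -0.05 without old library 4. The authors' mean normalized count of Ccl9 was 15.5, which is 2.11 per FPKM and kilobase of exon and just below the 5th percentile of protein-coding genes (2.20, with a median of 9.92).

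Ccl6, a close relative of Ccl9 (ENSMUSG00000018927, chr11:83401384-83406589), stood at 1.38, 1.86, 1.08, 4.15 and 1.33 FPKM in young libraries 1 to 5 and at 1.86, 2.21, 1.03, 1.2 and 1.91 in old libraries 1 to 5. Young library 4 was highest, and the log2 difference of -0.10 (SE 0.24, limma adjusted p = 0.862) turned to 0.12 without it. Ccl6 and Ccl9, neighbours on the chromosome, were therefore high in different libraries. Ccl4 and Ccl3, attractants of monocytes and T cells, had means of 0.810 and 0.566 FPKM, with the highest value of Ccl4 in old library 1 (2.42) and that of Ccl3 in young library 4 (1.47). Their exact permutation p-values were 0.730 and 0.159. Ccl5, a T cell and NK cell product, had a mean of 0.0978 FPKM.

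The eosinophil attractants that act on CCR3 were low, and none of 3 reached a mean of 1 FPKM. Ccl11, or eotaxin, stood at 0.405 ± 0.286 FPKM in young and 0.624 ± 0.253 in the old libraries (SD, n = 5, exact permutation p = 0.206), with its highest values in old library 1 (1.03) and young library 4 (0.890). Ccl24 had the opposite order, 0.409 ± 0.354 in young and 0.158 ± 0.0520 in the old libraries (SD, n = 5, exact permutation p = 0.135), with young library 4 at 0.979. Ccl26 was at 0 in all libraries.

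**Figure D3:**
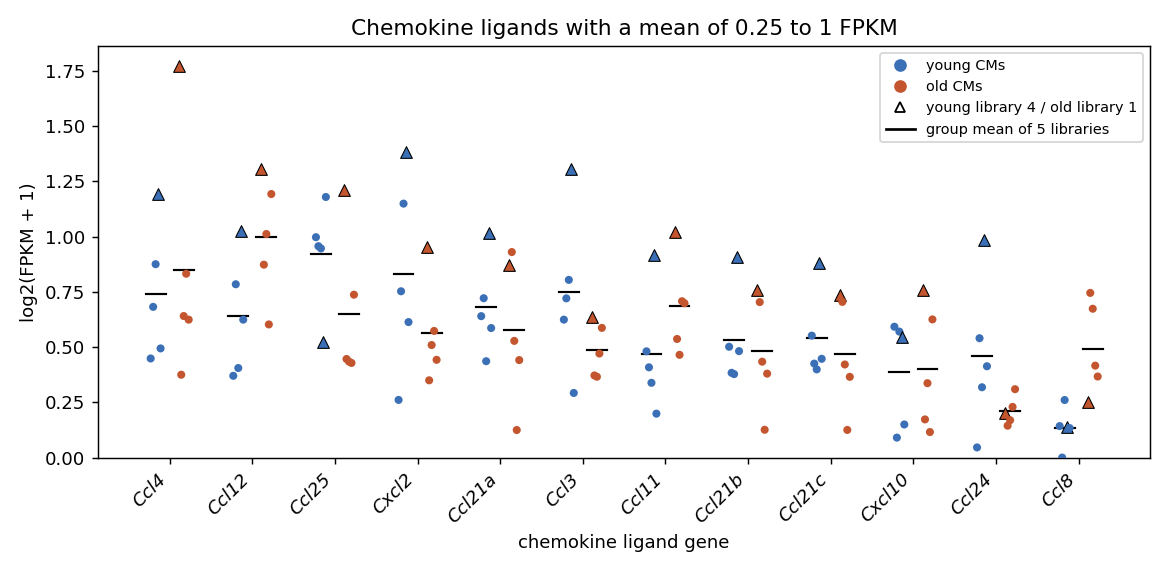
Level of the 12 chemokine ligands with a mean of 0.25 to 1 FPKM, as log2(FPKM + 1), in each of the 5 young (blue) and 5 old (orange) libraries; bars are group means and triangles mark young library 4 and old library 1. A triangle is the highest point for 11 of the 12, the exception being Ccl8, for which 4 old libraries lie above all young ones.

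The ligands of lymphoid tissue and of epithelial barriers made up 15 rows, among them 2 Ccl19 pseudogenes. Of these rows, 12 were above 0, 2 reached 1 FPKM and 0 were called. Ccl27a, a skin chemokine that binds CCR10 (ENSMUSG00000073888, chr4:41716340-41721120), stood second among all members, at 5.39, 5.41, 4.32, 5.14 and 5.46 FPKM in young libraries 1 to 5 and at 3.90, 4.66, 4.99, 5.0 and 6.0 in old libraries 1 to 5. Unlike most members, it was lowest in old library 1 (log2 difference -0.06, SE 0.09, limma adjusted p = 0.764), and the difference was 0.01 with upper-quartile scaling and 0.0048 without young library 4 and old library 1. Ccl27b (ENSMUSG00000066202, chr4:42664149-42669537) stood at 1.39, 1.43, 1.55, 1.16 and 1.47 FPKM in young libraries 1 to 5 and at 1.28, 1.62, 1.49, 1.48 and 1.23 in old libraries 1 to 5. Its libraries differed little (log2 difference 0.01, SE 0.08, limma adjusted p = 0.958).

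Copies of these genes limit what their values mean. Every 50-base stretch of the Ccl27b transcripts and 43.4% of those of Ccl27a occur in other genes too, and 401 exon bases of Ccl27b overlap Il11ra2. The authors' mean normalized count was 9.14 for Ccl27a and 0.0881 for Ccl27b. Per FPKM and kilobase of exon these are 0.765 and 0.0668 counts, against a median of 9.92 over 10572 protein-coding genes (5th to 95th percentile 2.20 to 14.9). Both ratios lay below the 5th percentile, so the FPKM of these genes stand above what their counts correspond to. Ccl21a, Ccl21b and Ccl21c, ligands of CCR7 that guide T cells and dendritic cells, share 99.8%, 99.9% and 100% of their stretches with copies, and each had an authors' mean count of 0 beside means of 0.571, 0.436 and 0.434 FPKM. These 3 rows cannot be told apart and their FPKM were highest in young library 4 and lowest in old library 4 for all 3. Ccl19, the other CCR7 ligand, shared 96.4% of its stretches and had a mean of 0.160 FPKM.

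**Figure D4:**
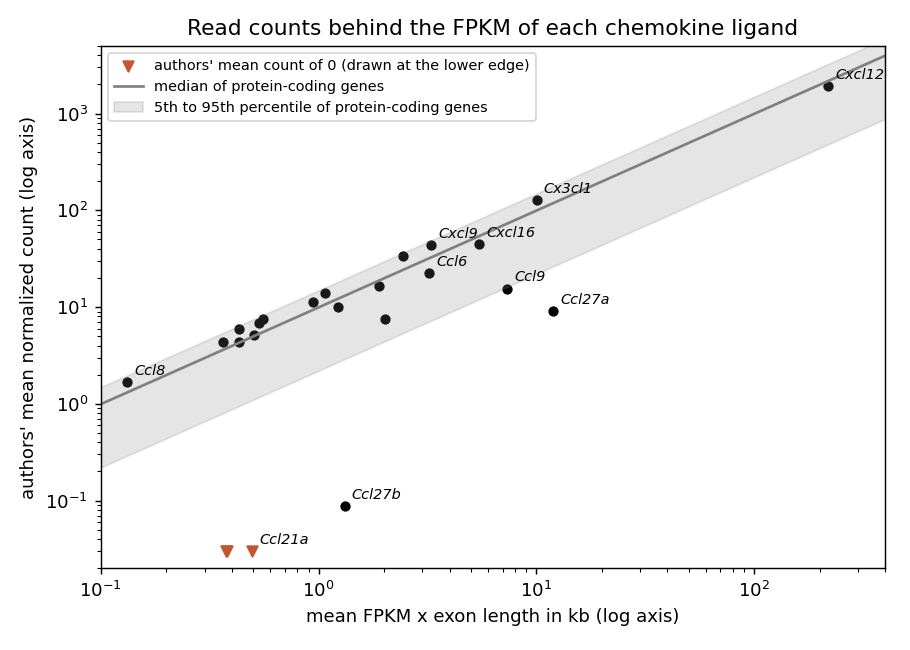
Authors' mean normalized count over all libraries (log axis) of each member with a mean of at least 0.25 FPKM. It is drawn against mean FPKM times the exon length in kilobases (log axis). The median and the 5th to 95th percentile of 10572 protein-coding genes are line and band, and members under 0.25 FPKM are not drawn. Cxcl12 and Cx3cl1 lie close to the line, Ccl9 and Ccl27a lie below the band, Ccl27b lies far below it, and members with a mean count of 0, such as Ccl21a, are drawn at the lower edge.

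The remaining lymphoid and barrier ligands were low. Ccl25, the thymic and gut ligand of CCR9 (ENSMUSG00000023235), stood at 0.914 ± 0.300 FPKM in young and 0.609 ± 0.418 in the old libraries (SD, n = 5, exact permutation p = 0.175), with 1.32 in old library 1 and 0.346 to 0.667 in the other old libraries. The second Ccl25 row (ENSMUSG00000055951) shares 1109 exon bases with the first and had a mean of 0.0074 FPKM. Ccl17 and Ccl22, ligands of CCR4, had means of 0.0084 and 0.0034 FPKM. Ccl1, Ccl20 and Ccl28 were at 0 in all libraries.

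The ELR CXC ligands, which attract neutrophils through CXCR2, were all low. Of 5, all were above 0 in at least 1 library, 1 reached 1 FPKM and 0 were called. Cxcl1 stood at 0.368, 0.800, 0.922, 2.93 and 1.25 FPKM in young libraries 1 to 5 and at 1.36, 0.824, 0.950, 0.540 and 1.28 in old libraries 1 to 5. Young library 4 lay above every other library, and the 2 ages overlapped among the rest (log2 difference -0.10, SE 0.25, limma adjusted p = 0.871). Without young library 4, where the mean of Cxcl1 fell under 1 FPKM, the difference turned to 0.12 (adjusted p = 0.724). Cxcl2, its neighbour on chromosome 5, ranged from 0.198 to 1.61 in young and from 0.274 to 0.934 in old CMs, with the maxima in young library 4 and old library 1 (exact permutation p = 0.270). Cxcl3, Cxcl5 and Cxcl15 had means of 0.0221, 0.0200 and 0.0027 FPKM. Cxcl1, Cxcl2 and Cxcl3 were each highest in young library 4.

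The interferon-inducible ligands of CXCR3, which attract activated T cells, included 1 tested member. Cxcl9 (ENSMUSG00000029417, chr5:92750357-92757105) stood at 1.08, 1.48, 1.02, 1.5 and 0.524 FPKM in young libraries 1 to 5 and at 2.18, 0.577, 0.997, 1.07 and 0.916 in old libraries 1 to 5. Old library 1 was highest, and the 2 ages had the same mean of log2(FPKM + 1) to the second decimal (limma adjusted p = 0.999, 95% interval of the difference -0.43 to 0.43). Cxcl10 ranged from 0.0646 to 0.508 in young and from 0.0834 to 0.690 in old CMs (exact permutation p = 0.929). Cxcl11 had a mean of 0.0049 FPKM.

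Many members thus shared their highest library rather than an order by age. Of the 24 members with a mean of at least 0.25 FPKM, 10 were highest in young library 4 and 10 in old library 1, together 20, against 30.5% of all 15406 features at that level. The Ccl21 copies count 3 times in this. The mean log2(FPKM + 1) of the 12 tested ligands was 2.09 in young library 4, 1.95 in old library 1 and 1.44 to 1.80 in the other 8 libraries. The mean of 8 endothelial markers was 4.61 and 4.66 in these libraries and 3.61 to 4.17 in the others, that of 8 fibroblast markers 3.38 and 3.48 against 2.25 to 2.86, and that of 12 macrophage and monocyte markers 2.36 and 2.03 against 1.42 to 1.90. The part of other cells in the ligand levels was not tested. Between the ages no list of other cell types held a called gene, beside 1.78% of all tested features. The neutrophil, the T, B and NK cell and the platelet and megakaryocyte lists had 0 tested genes, so none of theirs could be called. Exact permutation p-values of the lists of other cell types were 0.214 to 0.944. Without young library 4 and old library 1, 9 members reached 1 FPKM and 0 were called. Old library 4, where Ccl9 was highest, had a mean of 1.49 for the macrophage and monocyte markers. The part of these cells in the Ccl9 level was not tested.

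**Figure D5:**
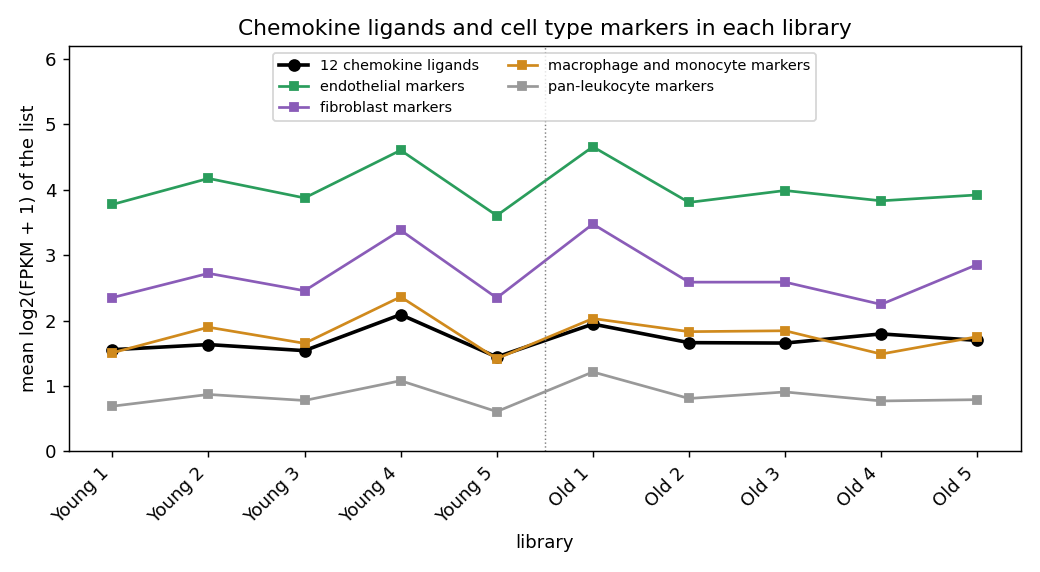
Mean log2(FPKM + 1) of the 12 tested chemokine ligands and of 4 marker lists in each library (young 1 to 5, then old 1 to 5; lines only join the libraries for reading). Young library 4 and old library 1 are the highest for the ligands and for each of the 4 lists.

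The receptors and the chemokine ligands outside the name rule gave 28 rows, of which 25 were above 0, 4 reached 1 FPKM and 0 were called. Cxcr7, the scavenger receptor of CXCL12, stood at 19.9 ± 2.52 FPKM in young and 20.9 ± 2.79 in the old libraries (SD, n = 5, limma adjusted p = 0.75), well above Cxcr4, the signalling receptor of CXCL12, at 2.12 ± 0.884 and 2.14 ± 1.02 (adjusted p = 0.993). Cxcr4 ranged from 0.913 to 3.82 FPKM and its highest libraries were old 1 (3.82) and young 4 (3.34), while Cxcr7 was highest in old library 2 and lay between 16.96 and 23.9 throughout. Ccrl2, an atypical receptor that binds the attractant chemerin, stood at 5.0 ± 0.375 and 5.08 ± 0.330 (adjusted p = 0.893). Pf4, the platelet CXC chemokine, stood at 2.83 ± 2.05 and 2.29 ± 0.827 (adjusted p = 0.895), with 6.14 in young library 4. Ccr2, Ccr10 and Cxcr6, singled out after their values were seen, were the 3 of these 25 rows with an unadjusted exact permutation p under 0.05, a share near the 13.1% of all features above 0, and the authors' mean counts of the 3 were only 6.74, 2.60 and 1.33. Ccr2 stood at 0.101 ± 0.0546 FPKM in young and 0.259 ± 0.102 in the old libraries (SD, n = 5, exact p = 0.0159), Ccr10 at 0.158 and 0.0711 (exact p = 0.0159) and Cxcr6 at 0.0390 and 0.0818 (exact p = 0.0476). Ccr4, Cxcr1 and Xcl1 were at 0 in all libraries.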

How the data were processed

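RNA from CMs of young and old mice (5 libraries each) was sequenced on a single flow cell. The authors aligned paired-end reads to mm9 with TopHat, kept unique reads, counted with HTSeq, compared ages with DESeq2 and determined FPKM with Cufflinks. The deposited FPKM of each library were used; 1 stray line was removed and values under 1e-06 were set to 0. The signal of the deposited comparison, the authors' mean normalized count over all libraries, was used as a pooled value only. Its fold changes and p-values, and 10 columns of values per sample, were not used. The depth per library is not given in the sources used here. Total FPKM was 1155610 to 3289460. Pearson's r between libraries, on log2(FPKM + 1) of the 12340 tested features, was 0.946 to 0.964.

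limma 3.58.1 (trend, R 4.3.3) was run over the features that averaged 1 FPKM or more, on log2(FPKM + 1), with a threshold of 0.05. A fold on this scale understates changes of low genes. Single members were tested by exact permutation over 252 arrangements. All members are accounted for, with values in every library for those at 1 FPKM or above and for any member whose groups do not overlap (Ccl8, which fell outside this rule, was singled out after its values were seen). Members and lists were chosen with earlier results of these data known. Alternatives were another pseudocount, filter, scaling, variance model, covariates, a replicate block and libraries left out. The tests were checked on simulated data. Exons, coding sequences and shared 50-base stretches are from GENCODE on mm9 (Python 3.11.15, pandas 2.3.3, matplotlib 3.10.9); Ccl28 was not matched there. The motif was searched after the first 20 residues. Sequences of promoters are from RefSeq.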

Additional observations from a re-analysis of the deposited data

Results flagged for a closer look

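Dixon's criterion was applied to log2(FPKM + 1) of the 12 tested ligands. By it, 1 of 24 groups of 5 libraries held a library far from the others. Chance alone meets this criterion in about 1 in 20 groups. Gaps on the FPKM scale itself, such as that of Ccl9 in old library 4, were not counted. Ccl27a stood at 4.32 FPKM in young library 3 and at 5.14 to 5.46 in the other young libraries. On the log2(FPKM + 1) scale the gap over range was 0.741 (critical value 0.71). The low ratio of its counts to its FPKM is given above.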

How the results depend on the processing

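The number of called ligands stayed at 0 under every alternative except without old library 2, so that it ranged from 0 to 1 when single libraries were left out. The number of members with an exact p under 0.05 ranged from 2 to 5 when single libraries were left out, with 5 without young library 4 (Ccl8, Ccl11, Ccl12, Cx3cl1 and Cxcl3), and was 2 on the FPKM scale and with median-ratio scaling. The replicate numbers did not pair the libraries: correlations of same-numbered deviations were -0.155 to 0.0618. With the replicate block, 0 ligands were called, Cx3cl1 had a limma adjusted p of 0.230 and 26 features were called in place of 220. Under the other alternatives called features numbered 33 (without old library 3) to 300 (array weights), with 119 under median-ratio and 164 under upper-quartile scaling, 145 with no filter and 49 without young library 4 and old library 1.

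No sign turned for Cxcl12, Cx3cl1, Ccl8 or Ccl12 under the alternatives run for each. The other 10 tested ligands turned under at least 1, and the cause was not tested. Cxcl9 was -0.0089 with a pseudocount of 0.1, -0.0651 with array weights and -0.0359 with the leukocyte marker covariate; Cxcl16 was -0.0048 with array weights; Ccl27a was 0.0123 with upper-quartile scaling; without young library 4 and old library 1, Ccl27a was 0.0048, Ccl6 0.0853 and Ccl27b -0.0070. Ligands that fell under 1 FPKM without libraries were refitted over the original features, a choice made after seeing the data: Cxcl1 was 0.124 without young library 4, and without young library 4 and old library 1 Cxcl1 was 0.0582 and Cxcl9 -0.0856. When single libraries were left out, differences ranged from -0.124 to 0.0040 for Ccl27a, -0.0501 to 0.765 for Ccl9, -0.0656 to 0.153 for Cxcl16, -0.208 to 0.119 for Ccl6, -0.0497 to 0.217 for Ccl2, -0.0271 to 0.0405 for Ccl27b, -0.0405 to 0.278 for Cxcl14, -0.0412 to 0.298 for Ccl7, -0.257 to 0.124 for Cxcl1, 0.166 to 0.469 for Cxcl12, 0.258 to 0.406 for Cx3cl1 and -0.151 to 0.102 for Cxcl9. The number of tested ligands that were higher in old CMs was 6 to 9 when single libraries were left out and 10 with upper-quartile scaling. Under the 2 scalings the median of all features moved from -0.06 to -0.01 and 0.02. At levels under 1 FPKM few reads stand behind each value, so a difference there may not have been detectable. The same limit may hold for tested ligands with low counts. The authors' mean normalized count over all libraries was 11.3 for Ccl7, 14.03 for Cxcl1, 16.6 for Ccl2 and 22.5 for Ccl6. It was 34.1 for Cxcl14, 43.3 for Cxcl9, 45.2 for Cxcl16, 126.7 for Cx3cl1 and 1939.7 for Cxcl12. Those of Ccl9, Ccl27a and Ccl27b are given above.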

Other observations

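With the mean of the endothelial, fibroblast and mural markers as a covariate, the difference of Cxcl12 was 0.32 on the log2(FPKM + 1) scale with a limma adjusted p of 0.0590, beside 0.31 and 0.501 without it, and the adjusted p of Cx3cl1 was 0.0819. With the macrophage, monocyte and pan-leukocyte markers as the covariate, the difference of Cxcl12 was 0.24 with an adjusted p of 0.149, and the adjusted p of Cx3cl1 was 0.130.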
